A study of Mus musculus with 12 samples.

Results

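Core interferon-stimulated genes are the antiviral effector genes that most cells switch on when interferon reaches them. The genes described here come from a list of 46 symbols. It covers the IFIT and MX families, the ISG15 conjugation system, the PARP enzymes, the PML nuclear body and related effectors. The symbols were taken by name and not by a cut on measured values, but with earlier results of these data known. Of these, 45 were among the 24421 gene rows of both count tables, and Rnf213 was not analysed here. All 45 had counts in every library (62 counts at the lowest) and passed the filter on low counts that 12164 genes passed.

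Type I interferon binds a receptor made of Ifnar1 and Ifnar2, whose kinases Jak1 and Tyk2 activate a transcription factor complex that holds Stat2 and Irf9. This complex binds the interferon-stimulated response element in the promoters of its targets. In macrophages a low level of interferon signalling keeps these genes on at rest, and lipopolysaccharide (LPS), a bacterial cell wall component, raises them through Toll-like receptor 4, the adaptor Ticam1 and newly made interferon-beta.

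The study measured poly(A)-selected RNA of mouse bone marrow-derived macrophages, which are macrophages grown from marrow cells, in 12 libraries. All came from male C57BL/6J mice of 8 weeks, and every group received an siRNA, so no untransfected cells were compared. The 4 groups of 3 libraries were resting cells (M0) with siControl, resting cells with an siRNA against Ehd1 (siEhd1), LPS-treated cells (M1) with siControl and LPS-treated cells with siEhd1. Ehd1 encodes a membrane-bending ATPase of the endocytic recycling compartment. The sources used here do not give the LPS dose, the hours of treatment or the siRNA sequences. Nothing in the labels tells separate mice or cultures apart within a group, so p-values measure the spread between these libraries. Resting and LPS-treated libraries stand in separate tables, and any handling that differed between them cannot be told apart from LPS.

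The libraries held 18572725 to 22545272 counts and 14119 to 14753 genes with a count. Ehd1, the siRNA target, was lower in all 6 siEhd1 libraries than in the siControl libraries of the same state. Its level fell by 0.76 at rest (53.2 to 31.5 CPM, which is counts divided by the TMM-adjusted library size) and by 1.04 after LPS (619.7 to 302 CPM) on the log2 scale (edgeR adjusted p = 5.73e-07 and 2.51e-08). All 8 listed macrophage markers were above 1 CPM, none of 5 conventional dendritic cell and none of 6 lymphocyte markers was, and of 6 plasmacytoid dendritic cell markers only Tcf4 was. In at least 1 group 1 of 7 neutrophil markers (S100a8) and 4 of 5 stromal and endothelial markers were at or above 1 CPM. The summed level of the 5 was 1.32 to 5.70 and 0.724 to 4.78 CPM at rest and 9.62 to 25.0 and 14.0 to 21.4 CPM after LPS, with siControl and siEhd1. Of these Dcn rose with siEhd1 after LPS (3.65 to 7.12 CPM, edgeR adjusted p = 0.0133), a call lost without LPS siEhd1 replicate 1 (0.0761), and none of the 5 was called at rest. Tcf4 fell with siEhd1 at rest (-0.18, a call lost without siControl replicate 1 or siEhd1 replicate 1, adjusted p = 0.112 to 0.136) and rose after LPS (0.27). With siEhd1 at rest, where 14.2% of all tested genes were called lower and 14.0% higher, 5 of the 8 macrophage markers fell (Csf1r, Mertk, Fcgr1, Cd14 and Lyz2). The Csf1r call was lost without resting siControl replicate 1 or resting siEhd1 replicate 1 (adjusted p = 0.114 to 0.135) and that of Cd14 without any 1 resting library but siEhd1 replicate 2 (adjusted p = 0.0532 to 0.187). Adgre1 (0.15), Cd68 (-0.11) and Itgam (-0.063) were not called. Adgre1 was called higher with scaling by library totals (edgeR adjusted p = 0.0209) and with the resting libraries alone (0.0446). The summed level of the 8 was 23640 to 24300 CPM with siControl and 19640 to 20990 CPM with siEhd1. Its largest part was Lyz2, with means of 14230 and 11310 CPM. All 8 cycling-cell genes rose at rest (summed level 132.9 to 197.4 against 430.3 to 537.0 CPM, median log2 fold change 1.51), and 7 of 8 rose after LPS (147.6 to 154.5 against 212.6 to 222.4 CPM), where 4.44% of tested genes were called higher. After LPS the Top2a call was lost without any 1 LPS library (adjusted p = 0.0917 to 0.133) and the Cdk1 call without LPS siEhd1 replicate 1 (0.0742). The part of these shifts in the results below was not tested. In bulk RNA, fewer cells that express a gene and less of its RNA per cell cannot be told apart.

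The interferon-stimulated response element is printed first because it is the letters that link many of these genes to interferon. It was searched on both strands as a direct repeat of GAAA with any 2 bases between the copies (TTTC where it is read on the other strand), with overlapping matches counted, in the RefSeq promoters of build GRCm38.p6 (250 bases before to 50 after the gene start). Of the 45 genes, 37 had a promoter in that set and 12 of these held the element (32.4%), against 3.99% of all 27025 genes with a promoter and 3.91% of the 9316 tested ones. The windows below show the interferon-stimulated response element and run 5′ to 3′ on the strand of the gene, with the match in capitals. Positions are negative before the start of transcription of that promoter and positive from its first base on, with no position 0.
Isg15 (chr4:156200872-156200899, minus strand, match at -72): taggaaaagGAAACCGAAAcagaaaata
Ifit1 (chr19:34640795-34640822, plus strand, match at -85): cagtctcagTTTCAGTTTCtcactgctg
Ifit3 (chr19:34583364-34583391, plus strand, match at -156): agtggtaagTTTCACTTTCctcttctgg
Ifit3 (chr19:34583398-34583425, plus strand, match at -122): ttaagtctgTTTCAGTTTCtactttcct
Bst2 (chr8:71537578-71537605, minus strand, match at -124): caggaaaatGAAACTGAAAggctgcagt
Ddx60 (chr8:61928059-61928086, plus strand, match at -19): agcagaagaGAAACCGAAActatccttc
Ifitm3 (chr7:141010707-141010734, minus strand, match at 20): aacttctgaGAAACCGAAActgccgcag
Rsad2 (chr12:26456554-26456581, minus strand, match at -120): tggtccaacTTTCATTTTCagaaaacag
Tdrd7 (chr4:45972097-45972124, plus strand, match at -191): aactttgtgGAAAGAGAAAtaaatccac

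Ifit3b carries the same letters as both Ifit3 windows, at chr19:34607760-34607787 and chr19:34607794-34607821. In Isg15 the printed window lies inside a run of 3 overlapping matches, at -78, -72 and -66. Phf11b, Lgals9 and Shisa5 complete the 12. The matches of Tdrd7 (3 promoters) and Shisa5 (5 promoters) are at inner promoters. That of Shisa5 is at chr9:109054889-109054915, while the genes begin at 45965334 (Tdrd7) and 109038565 (Shisa5) on the plus strand. A match is a description of the letters and not evidence of binding, and no match says only that these letters are not in this window.

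In resting macrophages, siEhd1 went with lower RNA of nearly the whole set. Of the 45 genes, 40 were lower with siEhd1 than with siControl, 0 were higher and 5 did not pass the test (edgeR quasi-likelihood test, Benjamini-Hochberg adjusted p under 0.05), where 14.2% of all tested genes were called lower and 14.0% higher. The median log2 fold change was -0.49 (range -1.36 to 0.13), against -0.016 for all tested genes. The siEhd1 and siControl libraries did not overlap for 41 of the 45, all with siEhd1 below, where 22.7% of tested genes were so separated. Together the 45 genes made up 0.678% to 0.731% of all counts in the resting siControl libraries and 0.505% to 0.552% in the resting siEhd1 libraries. Of the 55 genes that fell at least 2-fold across the genome, 6 were in the set (10.9%, where the set is 0.370% of tested genes): Ifi44, Ifit2, Ifit3, Ifit3b, Ms4a4c and Mx1. The count of 40 was 36 to 40 when any 1 resting library was left out.

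**Figure D1:**
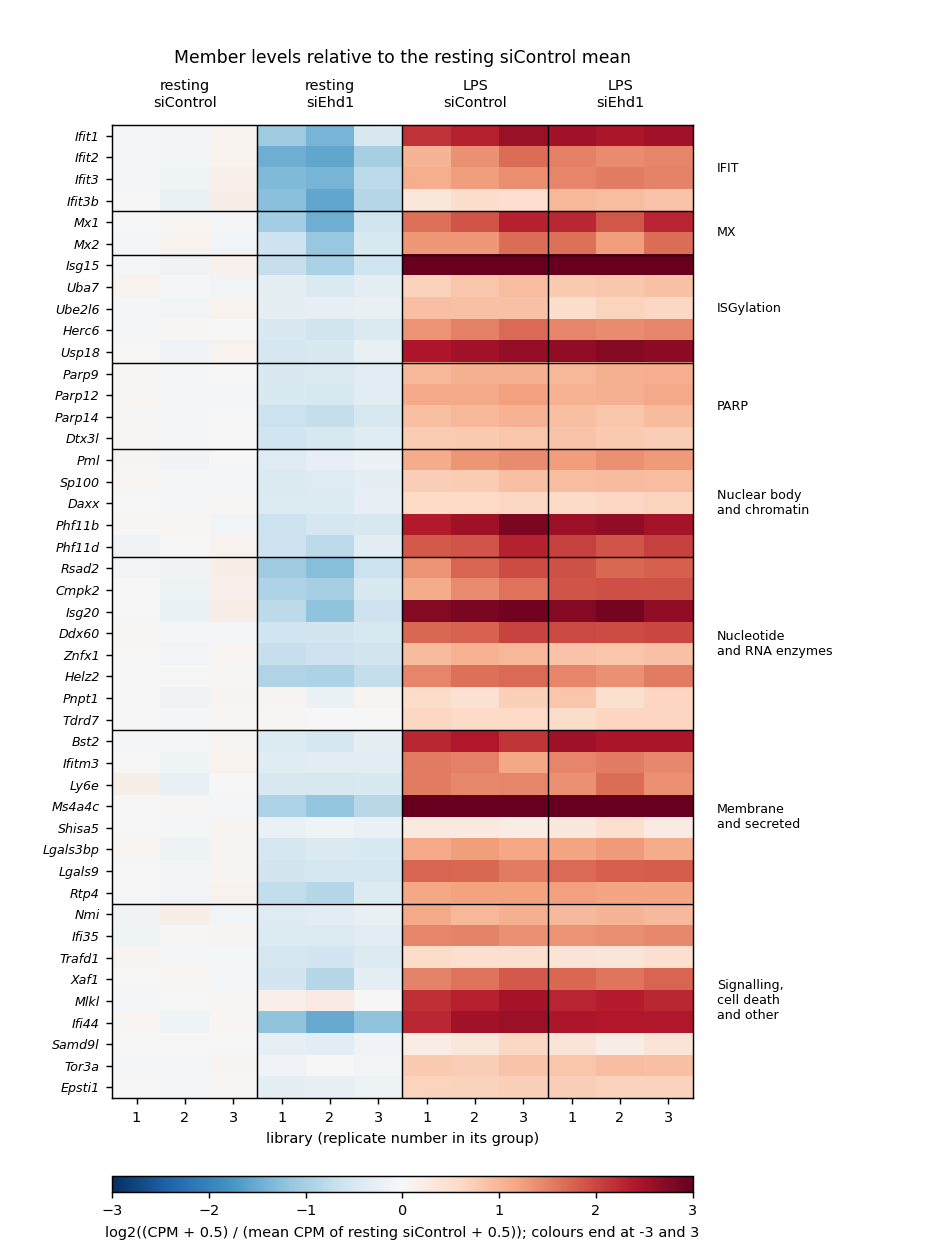
Level of each of the 45 genes (rows, grouped by function) in the 12 libraries (columns) as log2 of CPM plus 0.5 over the resting siControl mean plus 0.5; blue is lower and red is higher, and colours end at -3 and 3. The resting siEhd1 columns are blue for most rows, with replicate 3 the palest, and all LPS columns are red with no clear step between siControl and siEhd1.

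The 4 IFIT genes, which encode RNA-binding proteins that hold back translation of viral RNA, had the largest fall as a group (4 of 4 lower, median -1.19). Ifit2 had 151, 149 and 169.8 CPM with siControl and 56.7, 53.0 and 78.7 CPM with siEhd1 at rest. Ifit3 had 125, 118 and 141 CPM with siControl and 50.8, 48.2 and 72.9 CPM with siEhd1, and Ifit3b, its close copy, had 32.2, 28.3 and 36.7 CPM with siControl and 13.2, 10.7 and 17.7 CPM with siEhd1. In each of these genes the highest siEhd1 library lay well below the lowest siControl library, and replicate 3 was the highest siEhd1 library. The log2 fold changes were -1.32 (SE 0.19, edgeR adjusted p = 0.000875) for Ifit2, -1.16 (SE 0.15, edgeR adjusted p = 0.000287) for Ifit3 and -1.22 (SE 0.15, edgeR adjusted p = 0.000119) for Ifit3b. Ifit1, which binds viral RNA ends that lack host-type caps, had 45.1, 43.7 and 49.8 CPM with siControl and 21.7, 17.2 and 32.8 CPM with siEhd1. These groups did not overlap either, but the siEhd1 libraries varied by 33.6% (coefficient of variation), the widest of any of the 45 genes in any group. Its log2 fold change was -0.95 (SE 0.21, edgeR adjusted p = 0.0101), and the call was lost when only the resting libraries entered the fit (adjusted p = 0.0546). The genes lie in a row on chromosome 19 (GRCm38, plus strand): Ifit2 at 34550694-34576419, Ifit3 at 34583531-34588731, Ifit3b at 34607970-34613401 and Ifit1 at 34640871-34650009. Ifit3 and Ifit3b share exact 100-base stretches over 31.65% and 27.41% of their exon windows, so the split of reads between them is uncertain.

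Mx1 and Mx2 encode dynamin-like GTPases that block incoming viruses, and in C57BL/6 mice Mx1 is known to carry a defect in its protein. Both were lower at rest (median -0.90). Mx1 had 24.7, 25.7 and 24.4 CPM with siControl and 11.8, 8.71 and 16.2 CPM with siEhd1, and Mx2 had 8.01, 8.86 and 7.72 CPM with siControl and 5.17, 3.46 and 5.79 CPM with siEhd1. Neither gene's groups overlapped, and replicate 2 was the lowest siEhd1 library for both. The log2 fold change was -1.03 (SE 0.26, edgeR adjusted p = 0.0195) for Mx1 and -0.77 (SE 0.20, edgeR adjusted p = 0.0115) for Mx2. The Mx1 call was lost without resting siControl replicate 1 or 2 and without resting siEhd1 replicate 1 or 2 (adjusted p = 0.0515 to 0.0646). GENCODE M21 lists Mx2 as a polymorphic pseudogene, and per kilobase of exon it had the lowest level of the 45 genes in every group (2.27 CPM per kb with resting siControl, 1.33 with resting siEhd1).

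All 5 genes of the ISG15 conjugation system fell at rest (median -0.40). Isg15, the ubiquitin-like protein that is attached to targets, had 26.4, 25.2 and 29.6 CPM with siControl and 16.6, 13.4 and 17.7 CPM with siEhd1, without overlap, and a log2 fold change of -0.77 (SE 0.085, edgeR adjusted p = 1.68e-06). Usp18, which removes ISG15 and dampens receptor signalling, had 35.8, 33.1 and 38.7 CPM with siControl and 25.1, 25.8 and 30.7 CPM with siEhd1. Uba7, the activating enzyme, had 154, 141 and 136 CPM with siControl and 118, 106 and 119 CPM with siEhd1. Again no siEhd1 library reached a siControl library of the same gene. The log2 fold changes were -0.40 (SE 0.079, edgeR adjusted p = 0.000855) for Usp18 and -0.33 (SE 0.065, edgeR adjusted p = 0.000719) for Uba7, smaller than that of Isg15. Ube2l6, the conjugating enzyme, had the smallest fall of the group, -0.25 (SE 0.055, edgeR adjusted p = 0.00194). Herc6, the ligase in mice, changed by -0.50 (SE 0.072), but 20.89% of its exon windows are shared with other annotated transcripts, mostly Gm45193, so its counts are uncertain.

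The 3 PARP enzymes and Dtx3l, a ubiquitin ligase that works in a complex with Parp9, fell by similar amounts (4 of 4 lower, -0.61 to -0.41). Parp9 had 102, 95.1 and 98.5 CPM with siControl and 71.5, 72.7 and 77.5 CPM with siEhd1. Parp14, which also acts in Stat6 signalling, had 416, 391 and 404 CPM with siControl and 258, 247 and 288 CPM with siEhd1. Replicates lay close together within both groups and the groups were apart. The log2 fold changes were -0.41 (SE 0.052, edgeR adjusted p = 5.98e-06) for Parp9 and -0.61 (SE 0.062, edgeR adjusted p = 3.80e-07) for Parp14, and -0.42 (SE 0.054) for Parp12 and -0.48 (SE 0.059) for Dtx3l. Parp14, Dtx3l and Parp9 are neighbours on chromosome 16, and Parp9 and Dtx3l overlap on opposite strands over 458 exon bases (9.40% of the exons of Parp9). The sources used here give no strand setting for the counting, so reads of that overlap cannot be told apart.

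Of the nuclear body and chromatin genes, 5 of 5 were lower (median -0.36). Pml, the scaffold of the nuclear body, had 66.7, 58.1 and 62.5 CPM with siControl and 47.7, 53.0 and 55.4 CPM with siEhd1, which is apart by a small margin, and a log2 fold change of -0.26 (SE 0.077, edgeR adjusted p = 0.0152). Sp100, another body component, had 164, 154 and 154 CPM with siControl and 117, 121 and 130.2 CPM with siEhd1 and changed by -0.36 (SE 0.055, edgeR adjusted p = 5.63e-05). Daxx, a histone chaperone of the same bodies, changed by -0.36 (SE 0.053), and the PHD finger genes Phf11b and Phf11d by -0.56 (SE 0.11) and -0.59 (SE 0.16). The Pml call was lost without resting siControl replicate 1 or resting siEhd1 replicate 1 (adjusted p = 0.0835 to 0.0892). The Phf11d call was lost without resting siControl replicate 3 or resting siEhd1 replicate 1 or 2 (adjusted p = 0.0623 to 0.0655). Phf11b shares 13.82% and Phf11d 7.05% of their exon windows with other transcripts, mostly their copy Phf11c.

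Among nucleotide and RNA enzymes, 6 of 8 fell (median -0.70). Rsad2 (viperin), which turns CTP into a chain terminator of viral RNA synthesis, had 61.9, 60.8 and 74.1 CPM with siControl and 30.9, 26.9 and 42.1 CPM with siEhd1. Cmpk2, a mitochondrial nucleotide kinase whose gene lies 12751 bases from Rsad2 on chromosome 12, had 56.0, 49.7 and 61.6 CPM with siControl and 29.0, 27.8 and 40.3 CPM with siEhd1. In both genes resting siEhd1 replicate 3 was the closest to the control libraries and still below them. The log2 fold changes were -0.98 (SE 0.20, edgeR adjusted p = 0.00695) and -0.78 (SE 0.17, edgeR adjusted p = 0.00742). Isg20, an exonuclease, changed by -0.94 (SE 0.15) from a low level (6.79 CPM), the helicases Helz2 and Ddx60 by -0.85 (SE 0.071) and -0.55 (SE 0.075), and the RNA sensor Znfx1 by -0.62 (SE 0.055). Pnpt1, a mitochondrial RNA-degrading enzyme, and Tdrd7, a tudor-domain protein, were 2 of the 5 genes that did not pass. Their log2 fold changes were -0.00081 (95% interval -0.20 to 0.20) and 0.016 (-0.083 to 0.12). Tdrd7 is also the gene with an element match, at an inner promoter, that was not called.

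All 8 membrane and secreted products were lower (median -0.47). Ms4a4c, a tetraspan membrane protein, had 17.2, 17.5 and 16.9 CPM with siControl and 8.80, 7.43 and 9.45 CPM with siEhd1, without overlap of the groups, and changed by -1.005 (SE 0.13, edgeR adjusted p = 3.18e-05). Ifitm3, which blocks viral fusion in endosomes, had 464, 426 and 497 CPM with siControl and 358, 364 and 365 CPM with siEhd1. Bst2 (tetherin), which holds budding virions on the cell surface, had 132, 129.6 and 144 CPM with siControl and 102, 93.0 and 112 CPM with siEhd1. The log2 fold changes of the last pair were -0.35 (SE 0.082, edgeR adjusted p = 0.00375) and -0.40 (SE 0.072, edgeR adjusted p = 0.000317), without overlap of the groups. Per kilobase of exon, Ifitm3 had the highest level of the 45 genes in every group (682 CPM per kb with resting siControl and 534.7 with resting siEhd1), ahead of Lgals3bp (350.9 and 252.2) and Ly6e (203.9 and 147.5). The receptor chaperone Rtp4 changed by -0.65 (SE 0.085), galectin-9 (Lgals9) by -0.53 (SE 0.060), the secreted galectin partner Lgals3bp by -0.48 (SE 0.067) and the GPI-anchored Ly6e by -0.47 (SE 0.091). Rtp4 shares 11.19% of its exon windows with other annotated transcripts, mostly Gm45338, so its counts are uncertain. Shisa5 had the smallest fall that passed, -0.18 (SE 0.061, edgeR adjusted p = 0.0324), and lost its call without resting siControl replicate 1 or 3 or resting siEhd1 replicate 1 or 3 (adjusted p = 0.0617 to 0.133).

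The remaining 9 genes, with roles in signalling and cell death or none firmly known, were the least uniform (6 lower, 3 not called, median -0.32). Ifi44 had the largest fall of all 45 genes. It had 23.1, 20.4 and 23.4 CPM with siControl and 9.31, 7.47 and 9.32 CPM with siEhd1, with every siEhd1 library far below every siControl library, and it changed by -1.36 (SE 0.10, edgeR adjusted p = 3.77e-08). The apoptosis factor Xaf1 changed by -0.56 (SE 0.13), the signalling brake Trafd1 by -0.49 (SE 0.056), the partners Nmi and Ifi35 by -0.32 (SE 0.087) and -0.39 (SE 0.064), and Epsti1 by -0.23 (SE 0.050). Nmi lost its call without resting siControl replicate 2 (adjusted p = 0.0743). Mlkl, the pore-forming effector of necroptosis, had the highest value of the set, 0.13 (95% interval -0.053 to 0.31), with overlapping groups. Tor3a was at -0.066 (-0.18 to 0.043) and Samd9l at -0.22 (-0.40 to -0.037). Samd9l was the gene whose groups did not overlap although it was not called (edgeR adjusted p = 0.0697). It was called lower without resting siEhd1 replicate 3 (edgeR adjusted p = 0.0438) and with DESeq2 (DESeq2 adjusted p = 0.0473). The same held in an edgeR fit of the resting libraries alone (0.00676) and with the replicate number as a block (0.0335).

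**Figure D2:**
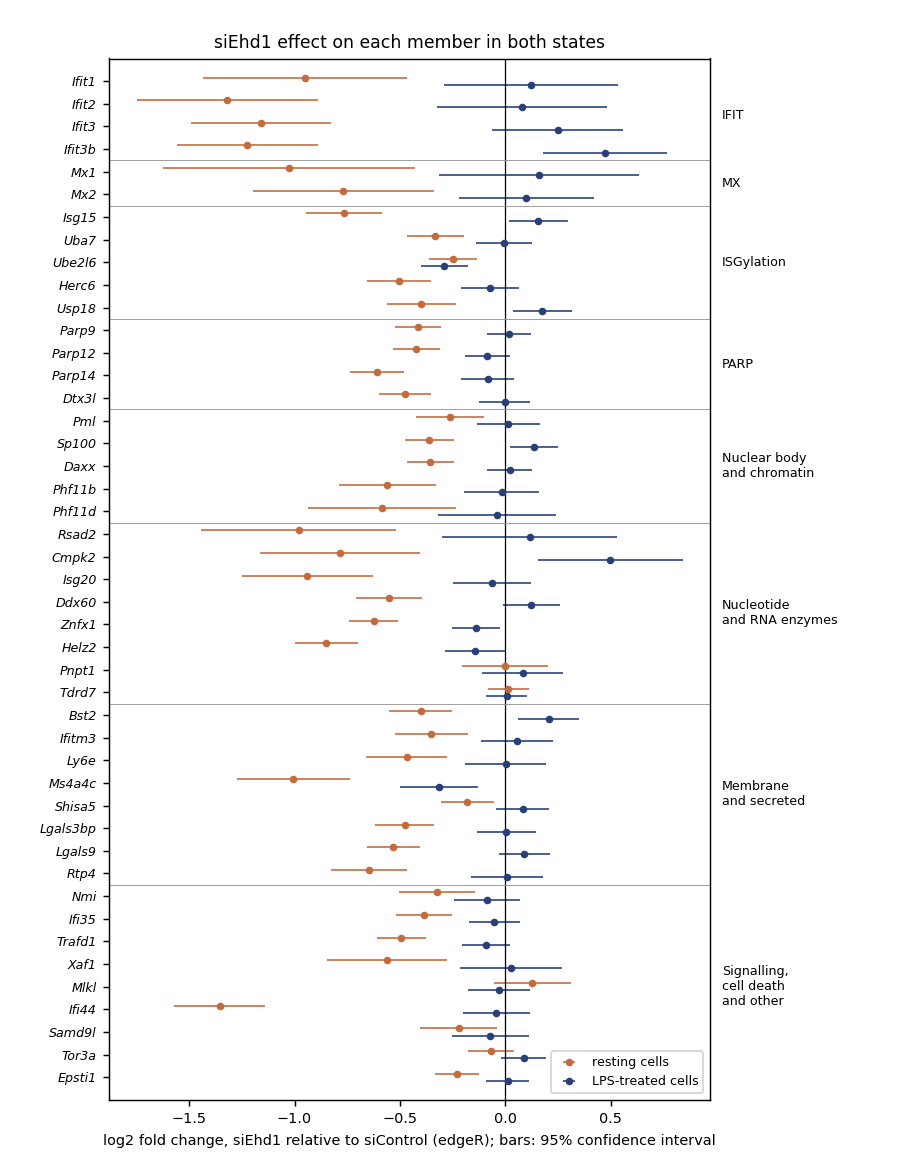
Log2 fold change of each gene with siEhd1 relative to siControl (horizontal axis) in resting cells (orange) and LPS-treated cells (blue), with 95% intervals from edgeR. Orange points lie left of 0 for 43 of 45 genes, with Ifi44, Ifit2, Ifit3b, Ifit3, Mx1 and Ms4a4c farthest left, while blue points scatter around 0 between -0.31 and 0.50.

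In LPS-treated macrophages, 2 of the 45 genes were lower with siEhd1, 0 were higher and 43 were not called, where 4.10% of tested genes were called lower and 4.44% higher. At an unadjusted p under 0.05, 4 were lower and 6 higher, where 1261 and 1344 of the 12164 tested genes were. The median log2 fold change was 0.012, against -0.0045 for all tested genes, with 27 genes above 0 and 18 below. The groups overlapped for 35 genes, siEhd1 lay above siControl for 7 and below for 3 (12.6% of tested genes in each direction). The 95% interval stayed within 0.5 of 0 on the log2 scale for 39 of the 45, and for 40 it lay above the estimate of the same gene at rest. The set made up 1.41% to 1.53% of counts with siControl and 1.48% to 1.51% with siEhd1.

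**Figure D3:**
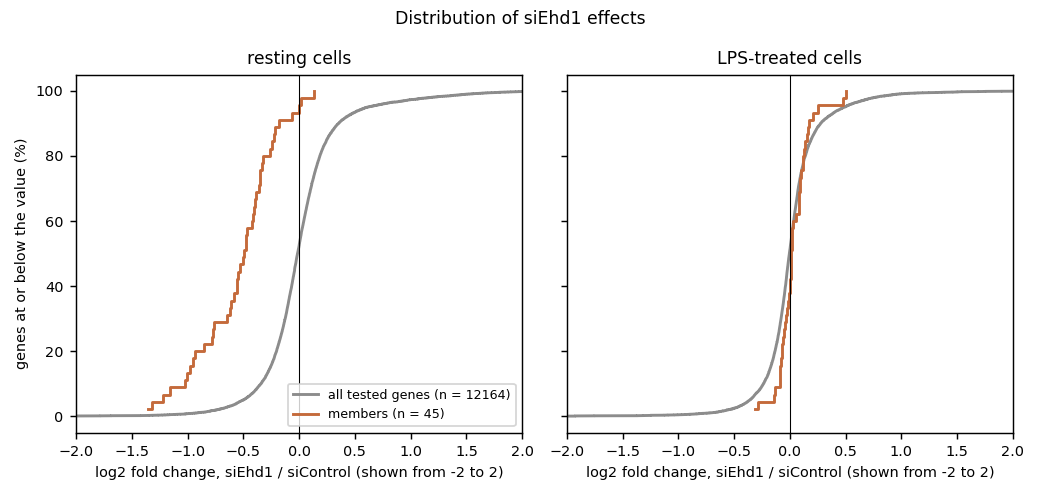
Cumulative share of genes (vertical axis, percent) at or below a given log2 fold change with siEhd1 (horizontal axis, drawn from -2 to 2) for the 45 genes (orange) and all 12164 tested genes (grey). At rest the orange line lies left of the grey line, with medians of -0.49 and -0.016, and after LPS both lines cross 50% close to 0, at 0.012 and -0.0045.

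Both genes called after LPS were named above. Ube2l6 had 187, 183 and 184 CPM with siControl and 143, 157 and 152 CPM with siEhd1, with the groups well apart and the siControl libraries within a narrow band. It changed by -0.29 (SE 0.053, edgeR adjusted p = 0.00136), close to its change at rest, and kept this call under all 12 alternatives. Ms4a4c had 243, 263 and 327 CPM with siControl and 234, 219.6 and 217 CPM with siEhd1, where siControl replicate 3 was the highest, and changed by -0.31 (SE 0.087, edgeR adjusted p = 0.0386). This call was lost without LPS siControl replicate 2 or 3 or any 1 LPS siEhd1 library (adjusted p = 0.0508 to 0.125).

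The highest value after LPS was that of Cmpk2, which had 122, 150.4 and 175 CPM with siControl and 207, 216 and 209.6 CPM with siEhd1. Every siEhd1 library lay above the siControl libraries, but the siControl libraries ran over a wide range, and the change of 0.50 (SE 0.15, edgeR adjusted p = 0.082) did not pass. Without LPS siControl replicate 3 it did (adjusted p = 0.0386), as it did with DESeq2 (0.039), in a fit of the LPS libraries alone (0.0338) and with the replicate block (0.00264). Ifit3b had 41.0, 46.8 and 46.3 CPM with siControl and 65.5, 62.1 and 58.8 CPM with siEhd1, also without overlap, at 0.48 (SE 0.13, edgeR adjusted p = 0.0515). DESeq2, limma-voom, a fit of the LPS libraries alone and the replicate block called it higher (adjusted p = 0.00229, 0.025, 0.000587 and 0.000945). Ifit3 had 273, 304 and 337 CPM with siControl and 352, 373 and 361 CPM with siEhd1 and a log2 fold change of 0.25 (SE 0.14, edgeR adjusted p = 0.351), and was called higher in the fit of the LPS libraries alone (0.0437) and with the block (0.0426).

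The other IFIT and MX genes overlapped between siRNAs after LPS. Ifit2 had 318, 403 and 506 CPM with siControl and 445, 422 and 431 CPM with siEhd1, and Ifit1 had 208, 233 and 282 CPM with siControl and 269, 249 and 269 CPM with siEhd1. Mx1 had 80.0, 93.9 and 126 CPM with siControl and 122, 92.1 and 123 CPM with siEhd1, and Mx2 had 20.8, 20.8 and 27.4 CPM with siControl and 26.8, 20.3 and 27.1 CPM with siEhd1. In these 4 genes LPS siControl replicate 1 was the lowest siControl library and replicate 3 the highest, and the siEhd1 libraries of Ifit1 and Ifit2 fell inside that range. The 95% intervals of the log2 fold change were -0.32 to 0.48 for Ifit2 and -0.29 to 0.54 for Ifit1. They were -0.31 to 0.64 for Mx1 and -0.22 to 0.42 for Mx2. Changes of a size within these intervals are not excluded.

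Isg15 had 236, 231 and 224 CPM with siControl and 270.3, 248 and 252 CPM with siEhd1 after LPS, Usp18 had 196, 208 and 224 CPM with siControl and 229, 245 and 235 CPM with siEhd1 and Uba7 had 234, 257 and 274 CPM with siControl and 249, 250.2 and 264 CPM with siEhd1. The siEhd1 libraries lay just above the siControl libraries for Isg15 and Usp18 and among them for Uba7. The log2 fold changes were 0.16 (SE 0.067, edgeR adjusted p = 0.174) for Isg15, 0.18 (SE 0.067, edgeR adjusted p = 0.121) for Usp18 and -0.0038 (SE 0.064, edgeR adjusted p = 0.983) for Uba7. Usp18 was called without LPS siControl replicate 3 (adjusted p = 0.0494). Parp9 had 196, 205 and 207 CPM with siControl and 198, 207 and 211 CPM with siEhd1, and Parp14 had 750.1, 808 and 833 CPM with siControl and 753, 721 and 784 CPM with siEhd1. Both PARP genes overlapped between siRNAs, with 95% intervals of -0.086 to 0.12 and -0.21 to 0.044.

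Pml had 136, 157 and 167 CPM with siControl and 149, 163 and 152 CPM with siEhd1 after LPS, and Sp100 had 263, 266 and 293 CPM with siControl and 299, 303 and 300.3 CPM with siEhd1. Pml overlapped, whereas all 3 siEhd1 libraries of Sp100 lay above siControl, at 0.14 (SE 0.054, edgeR adjusted p = 0.138), a call that was made without LPS siControl replicate 3 (adjusted p = 0.0404). Rsad2 had 167, 220.0 and 257 CPM with siControl and 249.9, 219 and 229.8 CPM with siEhd1, again with siControl replicate 1 far below the others, and a 95% interval of -0.30 to 0.53. Ifitm3 had 1368, 1324 and 1039 CPM with siControl and 1283, 1335 and 1259 CPM with siEhd1, with siControl replicate 3 the lowest library of all 6. Bst2 had 649.9, 712 and 604 CPM with siControl and 796, 737 and 737 CPM with siEhd1, and Ifi44 had 108, 129 and 136 CPM with siControl and 123, 120.3 and 119 CPM with siEhd1. The siEhd1 libraries of Bst2 lay above siControl and those of Ifi44 inside its range. Bst2 was at 0.21 (SE 0.069, edgeR adjusted p = 0.0704) and passed without LPS siControl replicate 2 (adjusted p = 0.0341), Ifitm3 was at 0.055 (-0.12 to 0.23) and Ifi44 at -0.043 (-0.20 to 0.12).

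**Figure D4:**
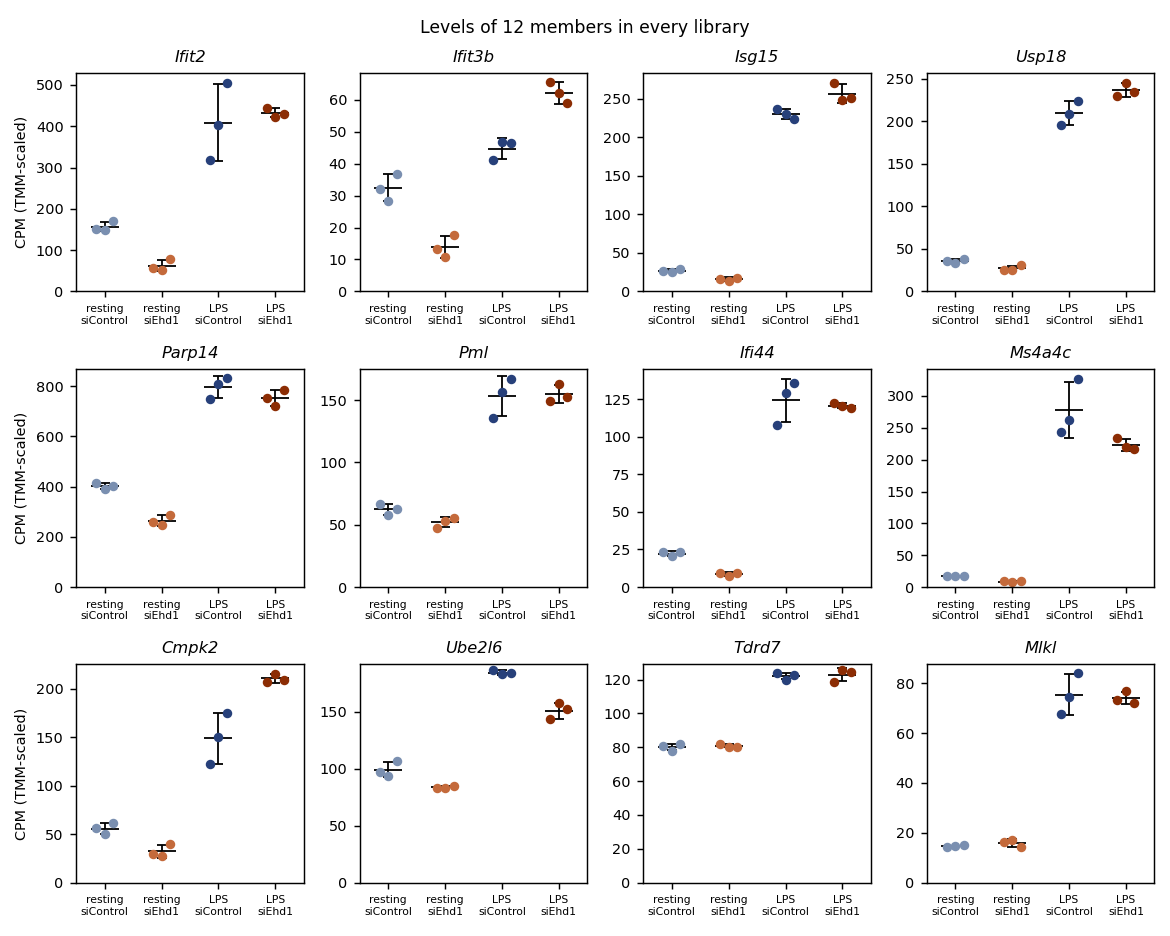
CPM after TMM scaling (vertical axes, each from 0) of 12 of the genes in each of the 3 libraries of the 4 groups, with the mean and SD. Ifit2, Isg15, Ifi44 and Ms4a4c show the resting step down with siEhd1, Ube2l6 shows a step down in both states, Tdrd7 and Mlkl show none, and Cmpk2 and Ifit3b lie higher with siEhd1 after LPS in all 3 libraries.

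The difference between the siEhd1 effects in both states was then tested itself, as an interaction in the same fit. For 30 of the 45 genes the log2 fold change was higher after LPS than at rest and for 0 it was lower (3.12% of tested genes were higher and 2.93% lower). At an unadjusted p under 0.05, 39 were higher, where 1187 of the 12164 tested genes were. The median difference was 0.50, against 0.0024 for all tested genes. It passed for 3 of 4 IFIT genes, 4 of 5 ISG15 system genes, 4 of 4 PARP and Dtx3l, 3 of 5 nuclear genes, 5 of 8 nucleotide and RNA enzymes, 7 of 8 membrane and secreted products, 4 of 9 others and 0 of 2 MX genes. The largest differences were those of Ifit3b, 1.70 (SE 0.20, edgeR adjusted p = 0.0006), Ifit3, 1.41 (SE 0.20, edgeR adjusted p = 0.0033), and Ifit2, 1.40 (SE 0.26, edgeR adjusted p = 0.0147). Ube2l6, with a similar fall in both states, had a difference of -0.042 (95% interval -0.20 to 0.12). Of the markers, 7 of 8 cycling-cell genes had a lower siEhd1 effect after LPS than at rest (median difference -0.89), and 3 of 8 macrophage markers a higher one, Fcgr1 at 0.92, Mertk at 0.53 and Lyz2 at 0.41. The Lyz2 call was lost in 9 of the 12 fits that left out 1 library (adjusted p up to 0.0943). Of the cycling-cell genes, Ccnb1 lost its call in 8 of these fits (up to 0.106) and Kif11 in 2 (up to 0.0597). Top2a, not called with all libraries, was called lower in 2. Tcf4 had a higher siEhd1 effect after LPS, at 0.45. The part of these shifts in the differences of the 45 genes was not tested.

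Mx1, Ifit1 and Rsad2 had large differences that did not pass: 1.19 (SE 0.34, edgeR adjusted p = 0.083), 1.07 (SE 0.28, edgeR adjusted p = 0.0624) and 1.10 (SE 0.27, edgeR adjusted p = 0.0524). Each was called without resting siEhd1 replicate 3 (adjusted p = 0.0423, 0.000692 and 0.0185) and without LPS siControl replicate 3 (0.03, 0.045 and 0.0295). The same held for Mx2 (0.0348 and 0.00904) and Xaf1 (0.00333 and 0.0179). Phf11d and Pml were called without LPS siControl replicate 3 (0.00154 and 0.0499), and Shisa5 without LPS siEhd1 replicate 3 (0.0494). DESeq2 on all 12 libraries called the difference for 36 genes. It added Ifit1, Mx1, Mx2, Rsad2, Xaf1 and Phf11d (DESeq2 adjusted p = 0.0128, 0.012, 0.00273, 0.00323, 0.00514 and 0.0267). With limma-voom, Ifit1 and Rsad2 were added (limma-voom adjusted p = 0.0424 and 0.0447) and Ly6e was lost (0.0542). In the other direction, the calls of 6 genes were lost when single libraries of the 12 were left out: Epsti1 for 10 libraries, Uba7 and Ly6e for 9 each, Ifitm3 for 8, Phf11b for 7 and Ifi35 for 5, with adjusted p up to 0.145, 0.119, 0.0947, 0.114, 0.0879 and 0.076. The count was lowest, 24, without resting siEhd1 replicate 1 or 2 and highest, 36, without LPS siControl replicate 3.

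These libraries stood apart for many genes of the set. Resting siEhd1 replicate 3 was the highest of its group for 39 of the 45 genes. LPS siControl replicate 1 was the lowest of its group for 31 and replicate 3 the highest for 30. In the LPS siEhd1 group no library led, with 14, 16 and 15 genes highest in replicates 1, 2 and 3. The median coefficient of variation of the 45 genes was 5.84% with resting siControl, 7.52% with resting siEhd1, 7.22% with LPS siControl and 4.02% with LPS siEhd1. Resting siEhd1 replicate 3 also had the lowest summed level of cycling-cell genes of its group (430.3 CPM, against 491.2 and 537.0), and LPS siControl replicate 3 the lowest summed level of macrophage markers (32170 CPM, against 38650 and 35380). Their part in the differences between libraries was not tested.

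LPS itself raised all 45 genes with either siRNA, without overlap of resting and LPS libraries, where 34.8% of tested genes were higher with siControl and 32.9% with siEhd1. Without overlap, 35.5% and 35.2% of tested genes were higher. With siControl the median log2 fold change was 1.38, from 0.28 for Shisa5 to 4.01 for Ms4a4c. Of the 45 genes, 30 rose at least 2-fold, where 1062 of the 12164 tested genes did. With siEhd1 the median was 1.95, from 0.54 to 4.71, and 36 of the 45 rose at least 2-fold, where 1067 of the 12164 tested genes did. Scaling by library totals alone moved the median of all tested genes from -0.010 to -0.21 with siControl and from -0.017 to -0.24 with siEhd1, and those of the set to 1.19 and 1.73. On that scale the rises of Ifit3b, Samd9l and Shisa5 with siControl did not pass (0.27, 0.20 and 0.080, edgeR adjusted p = 0.103, 0.101 and 0.172).

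The members differed widely in how much LPS raised them. Ms4a4c went from 17.2 ± 0.344 to 278 ± 43.9 CPM with siControl (SD, n = 3) and from 8.56 ± 1.03 to 223 ± 8.97 CPM with siEhd1. With siControl it was followed by Isg15 at 3.09 (SE 0.077), Isg20 at 2.92 (SE 0.11), Phf11b at 2.63 (SE 0.095) and Usp18 at 2.54 (SE 0.075) on the log2 scale. Mlkl and Tdrd7, which showed no siEhd1 call in either state, also rose with LPS, by 2.38 (SE 0.079) and 0.61 (SE 0.047). Per kilobase of exon, the order of levels changed little at the top: Ifitm3 (1835 CPM per kb), Lgals3bp (796.6), Bst2 (725.6) and Ly6e (570.3) led after LPS with siControl, and Isg15 moved from 35.8 at rest to 304.5 CPM per kb.

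Other genes of the interferon pathway were counted from a list of 42 by role, of which 30 passed the filter. At rest 13 of the 30 fell with siEhd1, 2 rose and 15 were not called (median -0.13), where 14.2% of all tested genes were lower and 14.0% higher. None of the 11 ligands passed the filter. Ifnb1, the interferon-beta gene, had 0, 0 and 0 counts with resting siControl, 0, 0 and 2 with resting siEhd1, 1, 0 and 1 with LPS siControl and 10, 5 and 6 with LPS siEhd1. All 3 LPS siEhd1 libraries were thus above all others, at very low counts. The 21 counts against 2 after LPS gave a ratio of 11.0 (95% exact binomial interval 2.695 to 97.0, counting error only), and with no filter on low counts the edgeR adjusted p was 0.0176.

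The receptor genes that bind type I interferon were not called: Ifnar1 was at 0.031 (95% interval -0.071 to 0.13) and Ifnar2 at 0.012 (-0.11 to 0.13) at rest. Of the receptors, Il10rb rose, at 0.21 (SE 0.060), a call lost without resting siControl replicate 1 or resting siEhd1 replicate 2 (adjusted p = 0.0521 to 0.0625). All 3 kinases were lower, Jak1 at -0.17 (SE 0.048), Jak2 at -0.29 (SE 0.063) and Tyk2 at -0.18 (SE 0.051). Jak1 lost its call without resting siControl replicate 3 or resting siEhd1 replicate 1 (adjusted p = 0.0547 to 0.0563), and Tyk2 without resting siControl replicate 1 (0.0666). Stat2 and Irf9, which are parts of the complex that binds the element printed above, fell by different amounts. Stat2 went from 202 ± 15.1 to 133 ± 9.88 CPM (SD, n = 3), a log2 fold change of -0.60 (SE 0.066, edgeR adjusted p = 1.11e-06). Irf9 changed by -0.25 (SE 0.049). Irf7, which drives further interferon production and is itself interferon-stimulated, fell more than either, at -0.88 (SE 0.067).

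Irf1, Irf2 and Irf8 were lower at rest as well (-0.26, -0.35 and -0.19), while Irf3 and Irf5 were not called (-0.0096 and 0.10). Without resting siControl replicate 1 Irf8 was not called (adjusted p = 0.0607). On the route from Toll-like receptor 4, Ikbke and Tlr4 fell, at -0.33 (SE 0.078) and -0.16 (SE 0.053), and Ticam1, Ticam2, Traf3, Tbk1, Mavs and Tmem173 (STING) were not called. The Tlr4 call was lost without resting siControl replicate 1 or resting siEhd1 replicate 1 (adjusted p = 0.127 to 0.153). Of the negative regulators, Socs3 fell from a low level (3.69 to 1.88 CPM), at -0.97 (SE 0.23), and Ptpn6 rose, at 0.16 (SE 0.053), a call lost without any 1 resting library but siControl replicate 1 (adjusted p = 0.063 to 0.145).

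After LPS, 2 of the 30 pathway genes were lower with siEhd1 and 0 were higher, where 4.10% of all tested genes were lower and 4.44% higher. Jak2 went from 363 ± 16.3 to 263 ± 8.85 CPM (SD, n = 3), at -0.46 (SE 0.055, edgeR adjusted p = 1.70e-05), and Socs1 was at -0.33 (SE 0.088, edgeR adjusted p = 0.0208), a call lost without LPS siControl replicate 2 or LPS siEhd1 replicate 1 or 3 (adjusted p = 0.0546 to 0.126). Stat2 was at 0.036 (95% interval -0.10 to 0.17). The siEhd1 effect was higher after LPS than at rest for Irf7, Stat2, Irf2 and Irf8, at differences of 0.81, 0.64, 0.31 and 0.28. The differences of Irf2 and Irf8 were lost in 8 and 6 of the 12 fits that left out 1 library, with adjusted p up to 0.126 and 0.0867.

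Read against the promoter letters, genes with and without the element were both lower at rest. Of the 12 with a match, 11 fell (median -0.55, range -1.22 to 0.016), and of the 25 without one, 22 fell (median -0.48, range -1.36 to 0.13). Ifi44 and Ifit2 are among the genes with a promoter in the set and no match in this window. The median LPS response with siControl was 1.69 with a match and 1.18 without. A 7-base word, GCCTTGT, was in the 3′ UTR of 5 of the 45 genes (11.1%, against 14.7% of the 11242 tested genes searched). It was looked at because, of all tested genes searched, 466 of 1652 with it and 1161 of 9590 without it were lower with siEhd1 at rest, and 240 and 234 after LPS. Of the same genes with and without it, 149 and 1493 were higher at rest, and 56 and 466 after LPS. The word was thus picked from these data. Of the 45 genes, 5 of 5 with the word (median -0.59) and 35 of 40 without it (median -0.49) fell at rest.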

How the data were processed

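Poly(A)-selected RNA was sequenced in 12 libraries, 3 in each of 4 groups (resting or LPS-treated macrophages with siControl or siEhd1). The authors deposited raw counts per gene, in 1 table for resting and 1 for LPS-treated libraries. The submitters' processing notes name STAR 2.7.6a, the build mm10, featureCounts 2.20.0, cutadapt and Trim Galore 0.6.3, FastQC 0.10.1, and R 4.4.2 with DESeq2 1.46.0. Which annotation was counted, with which strand option and how multi-mapping reads were handled, is not given in the sources used here.

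Both tables were joined by gene and filtered with filterByExpr (minimum count 10, minimum total 15), which left 12164 of 24421 genes. edgeR 4.0.16 (limma 3.58.1, R 4.3.3) was used with TMM scaling and a robust quasi-likelihood fit of 1 mean per group over all 12 libraries (8 residual degrees of freedom), with p-values adjusted by Benjamini-Hochberg over all tested genes and a threshold of 0.05. The SE is the log2 fold change over the root of F, and intervals are 95%. The script was tested on simulated data. Library totals were 18572725 to 22545272 counts. No 2 libraries were identical, and replicates of a group differed by more than counting noise.

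The members, the pathway and marker lists and the rule for named genes were chosen with earlier results of these data known. The rule allows every member and pathway gene to be named, and prints each library for chosen members of every function and for the 3 with the largest siEhd1 change in each comparison, plus those called after LPS. The values of 1 gene of the pathway list are not reported here. Alternatives were DESeq2 1.42.0, limma-voom, library totals, no filter, each library left out, the replicate number as a block and the compared groups alone. In a further alternative the counts of Ifit3 and Ifit3b, or of Phf11b and Phf11d, were summed. Gene positions are from GENCODE M21 (GRCm38) and promoters from RefSeq (GRCm38.p6).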

Additional observations from a re-analysis of the deposited data

Results flagged for a closer look

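The siEhd1 effect differed between LPS-treated and resting cells for 30 of the 45 genes by the interaction test (edgeR quasi-likelihood, adjusted p under 0.05), where 3.12% of all tested genes were higher and 2.93% lower. Each value is the log2 fold change with siEhd1 after LPS less that at rest. Among the IFIT genes these were Ifit3b at 1.70, Ifit3 at 1.41 and Ifit2 at 1.40. In the ISG15 system they were Isg15 at 0.92, Usp18 at 0.57, Herc6 at 0.43 and Uba7 at 0.33. For the PARP enzymes and Dtx3l they were Parp14 at 0.53, Dtx3l at 0.47, Parp9 at 0.43 and Parp12 at 0.34. Nuclear body and chromatin genes gave Phf11b at 0.54, Sp100 at 0.50 and Daxx at 0.38. Nucleotide and RNA enzymes gave Cmpk2 at 1.28, Isg20 at 0.88, Helz2 at 0.71, Ddx60 at 0.67 and Znfx1 at 0.49. Membrane and secreted products gave Ms4a4c at 0.69, Rtp4 at 0.66, Lgals9 at 0.62, Bst2 at 0.61, Lgals3bp at 0.48, Ly6e at 0.47 and Ifitm3 at 0.41. The remaining genes were Ifi44 at 1.31, Trafd1 at 0.40, Ifi35 at 0.33 and Epsti1 at 0.24. The MX genes did not pass, though DESeq2 called Mx1 and Mx2 (DESeq2 adjusted p = 0.012 and 0.00273).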

How the results depend on the processing

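No value changed direction past its threshold in any alternative. In resting cells 34 of the 40 lower calls, and 23 of the 30 calls of the difference between states, were kept in all alternatives. Leaving out 1 library at a time gave 36 to 40 lower genes at rest (median -0.53 to -0.45), 24 to 36 for the difference (median 0.47 to 0.55), 0 to 4 higher and 1 to 3 lower after LPS, and LPS medians of 1.22 to 1.45 with siControl and 1.86 to 1.99 with siEhd1. After LPS, DESeq2 called 3 genes higher, no filter 1, limma-voom 1 and the compared groups alone 3, against 0, and library totals and the compared groups alone called 1 lower, against 2. Library totals moved the LPS medians to 1.19 with siControl and 1.73 with siEhd1. The replicate number as a block within each state gave 40 lower genes at rest, 3 higher and 1 lower after LPS and 32 for the difference. Same-numbered libraries of a state did not deviate together in every pair (correlation -0.167 to 0.185). With 3 libraries a group, these correlations cannot decide whether the number marks a shared culture or batch. The cause of these changes was not tested.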
